A study of Mus musculus with 4 samples.

Results

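Transcripts of 9 complement genes were compared between parental ID8G cells and GO2 cells. They encode components of the cascade (C3, C4b, C2, Cfb, Cfd, C1ra and C1s1) and membrane regulators (Cd55 and Cd59a). The genes were chosen with earlier results of these data known, and a probe was counted when its RefSeq accession maps to one of them. This gave 16 of the 56605 probes that are not controls, for 9 of the 22911 gene symbols on the array. C3 and Cd55 transcripts were lower in GO2 cells, and C2 and Cd59a transcripts were higher. Those of C1ra, C1s1 and C4b changed by less than 2-fold, and no probe of Cfb or Cfd rose well above background.

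ID8G cells are the ID8 mouse ovarian cancer line after transduction with a GFP retrovirus and sorting for GFP. GO2 cells descend from them through 2 rounds of growth as omental tumors in female C57BL/6 J mice, each of 3 to 4 months by the description of the series. After each round, CD45-GFP+ cells were sorted from the dissociated omentum. Both lines therefore carry GFP, and both were kept in DMEM with low serum, insulin, transferrin and selenite. GO2 is a single selected line, without a parallel line kept in culture for the same time, so selection in the mouse and time in culture cannot be told apart. Each line was measured on 2 arrays with Cy3-labeled RNA. The labels do not say that the 2 arrays of a line come from separate cultures, so p values measure the spread between these arrays, which may be technical. In a population of cells, fewer expressing cells and less RNA per cell cannot be told apart.

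Complement is a cascade of plasma proteases and their substrates that marks surfaces for uptake and can lyse cells. The classical route starts with C1q and its proteases C1r and C1s, which cleave C4 and C2 into the C3 convertase, whereas the alternative route uses factor B and factor D. Both routes cleave C3, the central component. Host cells protect themselves with membrane proteins. CD55 speeds the decay of C3 convertases, CD59 blocks the final pore, and in rodents Crry, the product of Cr1l, also controls C3 activation. Most components are made in the liver, and many other cell types, epithelial and mesothelial cells among them, make some locally.

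Levels below are log2 intensities minus the 75th percentile of the array, so that 0 stands for that percentile. A probe was tested when the scanner software marked it as well above background on both ID8G arrays, both GO2 arrays or all 4, and was called at a limma adjusted p (Benjamini-Hochberg over 28368 tested probes) below 0.05 with a difference of at least 2-fold. Of the 16 member probes, 11 probes of 7 genes were tested. Of these, 3 probes were called higher in GO2 cells and 5 were called lower, where 4.50% of all tested probes were called higher and 3.34% lower. By gene, 2 of the 7 were higher and 2 lower, where 5.98% and 3.94% of all tested genes were called. Since the members were chosen with earlier results of these data known, these shares do not test for an excess. All 3 higher probes, and the C4b probe that was not called, passed this filter through GO2 cells alone, a route that selects for signal in GO2 cells, whereas the 5 lower probes were well above background on all 4 arrays. When the arrays were scaled to the spike-in transcripts, 1102 probes in all were called higher and 1434 lower, against 1277 and 947 here. The smallest p that an exact permutation of 2 arrays against 2 allows is 0.333, so the limma values depend on its pooling of variance across probes. The methods name a two-sided Welch t-test for comparisons of 2 groups in general, and no test for the arrays. That t-test called none of these probes after adjustment (adjusted p 0.114 to 0.176 for the 8 called probes), although 8 of the 11 tested probes had an unadjusted p under 0.05. Over all tested probes it called 0 higher and 3 lower.

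**Figure D1:**
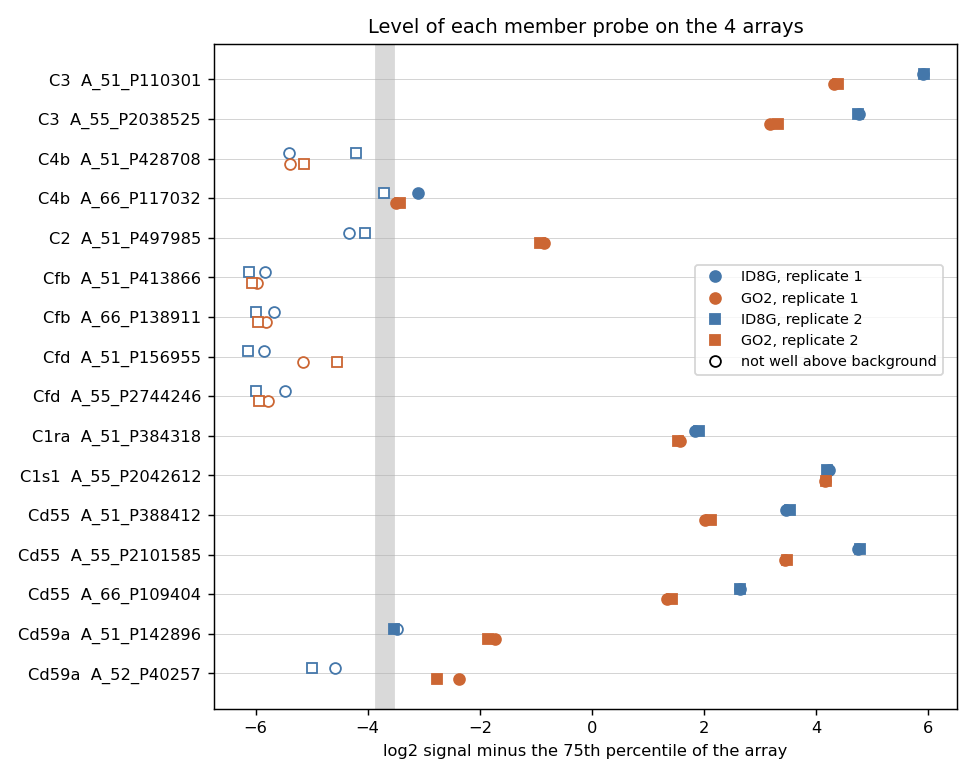
Level of each of the 16 member probes on each array, as log2 signal minus the 75th percentile of the array. Filled symbols are well above background and open symbols are not, and the grey band spans the lowest levels well above background on the 4 arrays (-3.85 to -3.53). The lines separate for C3, C2, Cd55 and Cd59a, whereas the Cfb and Cfd probes are open on all arrays.

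C3 transcripts fell in GO2 cells by both probes. The probe A_51_P110301 read 5.92 and 5.92 in ID8G cells and 4.32 and 4.39 in GO2 cells. The second probe, A_55_P2038525, read 4.76 and 4.75 in ID8G cells and 3.17 and 3.32 in GO2 cells. On both probes each GO2 array lay below each ID8G array, and the gap was many times the spread between arrays of a line. The log2 difference was -1.56 for the first probe (standard error 0.05, 95% interval -1.71 to -1.41, limma adjusted p = 0.000421) and -1.51 for the second (standard error 0.07, adjusted p = 0.000733). On the linear scale C3 signal was 2.95-fold and 2.85-fold lower. C3 remained bright in GO2 cells, above the 75th percentile of each array on both probes.

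C2 transcripts, in contrast, were higher in GO2 cells. The C2 probe A_51_P497985 read -4.34 and -4.06 in ID8G cells, neither of them well above background, and -0.85 and -0.92 in GO2 cells, both well above it. C2 provides the protease of the classical C3 convertase. With the ID8G arrays raised to their lowest level well above background, C2 was 6.93-fold higher in GO2 cells (2.79 on the log2 scale, limma adjusted p = 0.000412 on the raised values). That level is the lowest of any probe so marked. Probes above it can be unmarked, so this fold is not a strict lower bound. The plain log2 difference, 3.31 (adjusted p = 0.000401), uses ID8G values that are not well above background. With normexp background correction of the median pixel values and an offset of 50, the difference was 1.83 and was still called.

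C4b, which supplies the other subunit of that convertase, has a pair of probes. On A_66_P117032 the levels were -3.11 and -3.72 in ID8G cells, with only the first well above background, and -3.49 and -3.43 in GO2 cells. The lines overlapped, and the difference of -0.05 (95% interval -0.64 to 0.55, adjusted p = 0.885) leaves room for a change of either sign. The other C4b probe, A_51_P428708, was not well above background on any array (-5.41 to -4.21). C4b and C4a are near-identical copies, so C4b signal may include C4a, although the C4a probe A_55_P2745402 was not well above background on any array (-6.04 to -5.76).

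The proteases of C1 differed little. C1s1 read 4.23 and 4.20 in ID8G cells and 4.16 and 4.17 in GO2 cells, a log2 difference of -0.05 (95% interval -0.19 to 0.09, adjusted p = 0.507). A change of C1s1 beyond 0.19 on the log2 scale thus lay outside the interval. C1ra, which encodes the protease that activates C1s, read 1.84 and 1.91 in ID8G cells and 1.56 and 1.54 in GO2 cells. Both GO2 arrays lay below both ID8G arrays, but the difference of -0.32 (standard error 0.06, adjusted p = 0.0182) was 1.25-fold only and was not called. For the close copy C1rb the log2 difference was -0.20 on the brighter probe (limma adjusted p = 0.267). On its other probe, A_66_P123318, it was -0.26 (95% interval -0.42 to -0.11, limma adjusted p = 0.0305). For the close copy C1s2 it was 0.00 (limma adjusted p = 0.970). Each copy is close enough in sequence to its partner that a probe may read both.

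Beside C3, the alternative route has a pair of members. Neither Cfb, the protease subunit of the alternative convertase, nor Cfd, the protease that cleaves it, was well above background on any array. The 2 Cfb probes ranged from -6.12 to -5.68 over the 4 arrays, and none of these levels was well above background. The Cfd probe A_55_P2744246 ranged from -6.00 to -5.47. The other Cfd probe, A_51_P156955, read -5.85 and -6.14 in ID8G cells and -5.15 and -4.56 in GO2 cells, still not well above background on any array. No fold is given for Cfb or Cfd, since neither line was well above background. Absence from these readings sets an upper limit on signal and does not show that the transcripts were absent.

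The membrane regulators Cd55 and Cd59a moved in opposite directions. All 3 probes of Cd55 were called lower in GO2 cells. The probe A_55_P2101585 read 4.76 and 4.78 in ID8G cells and 3.44 and 3.49 in GO2 cells. A_51_P388412 read 3.46 and 3.54 in ID8G cells against 2.01 and 2.13 in GO2 cells, and A_66_P109404 read 2.64 and 2.64 against 1.34 and 1.43. No GO2 array reached an ID8G array on any Cd55 probe. The log2 differences were -1.31, -1.42 and -1.25 (standard errors 0.05, 0.07 and 0.06), with limma adjusted p values from 0.000537 to 0.000788. This corresponds to Cd55 signal 2.38-fold to 2.68-fold lower, and the level in GO2 cells still exceeded the 75th percentile.

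Cd59a, the gene of a GPI-anchored inhibitor of the membrane attack complex, was called higher by both of its probes. A_51_P142896 read -3.47 and -3.54 in ID8G cells, with 1 of the 2 arrays well above background, and -1.73 and -1.85 in GO2 cells. The log2 difference was 1.72 (standard error 0.07, 95% interval 1.53 to 1.90, adjusted p = 0.000512), a 3.29-fold higher signal. This fold uses 1 ID8G value that is not well above background. Both ID8G values already lay above the lowest level well above background of their array (-3.53 and -3.82), so raising could not change the difference. A_52_P40257 read -4.58 and -5.00 in ID8G cells, neither well above background, and -2.37 and -2.76 in GO2 cells. With the ID8G arrays raised to those levels it was 2.17-fold higher, which is again not a strict lower bound. The limma adjusted p was 0.0121 on the raised values, against 0.00383 for the plain difference of 2.23. The lines did not overlap on either probe. Under the normexp setting, which also changed the signal column and added the offset, the differences of the Cd59a probes were 0.99 and 0.92, just short of 2-fold, so that neither was called. The probe of the close copy Cd59b, A_52_P61691, ranged from -6.02 to -5.73 and was not well above background on any array.

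**Figure D2:**
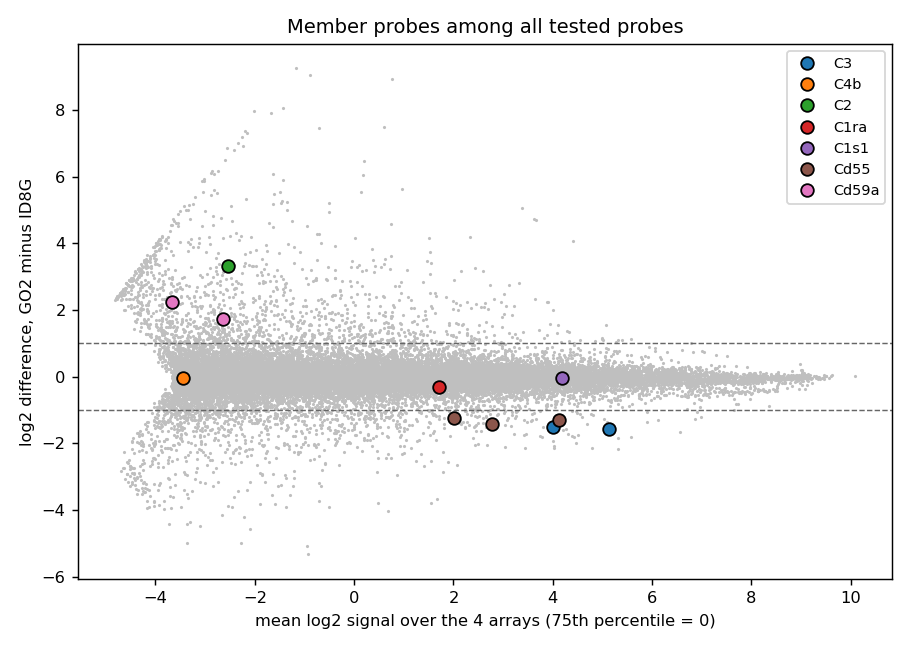
Log2 difference (GO2 minus ID8G) of all 28368 tested probes (grey) against their mean log2 signal over the 4 arrays, with the 11 tested member probes in color and dashed lines at a 2-fold difference. The C3 and Cd55 probes lie on the bright side below the lower line, and the C2 and Cd59a probes lie on the dim side above the upper line.

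Promoter windows were taken from RefSeq (GRCm38.p6, 250 bases before to 50 after a start). Of the 9 genes, 6 had a window in the table used here, and C2, C4b and Cfb were not among them. That of C3 lies at chr17:57228087-57228386 on the minus strand and that of Cd59a at chr2:104095551-104095850 on the plus strand. They are shown because their genes moved in opposite directions, with capitals for TATAAA in C3 and, in Cd59a, for GAAA followed after any 2 bases by GAAA, the core of the interferon-stimulated response element.

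C3: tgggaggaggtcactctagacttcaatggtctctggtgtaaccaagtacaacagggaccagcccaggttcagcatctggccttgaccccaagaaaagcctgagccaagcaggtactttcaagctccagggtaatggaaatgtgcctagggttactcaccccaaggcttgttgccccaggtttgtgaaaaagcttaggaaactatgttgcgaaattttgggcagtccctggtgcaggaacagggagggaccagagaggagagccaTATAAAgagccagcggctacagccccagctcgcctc

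Cd59a: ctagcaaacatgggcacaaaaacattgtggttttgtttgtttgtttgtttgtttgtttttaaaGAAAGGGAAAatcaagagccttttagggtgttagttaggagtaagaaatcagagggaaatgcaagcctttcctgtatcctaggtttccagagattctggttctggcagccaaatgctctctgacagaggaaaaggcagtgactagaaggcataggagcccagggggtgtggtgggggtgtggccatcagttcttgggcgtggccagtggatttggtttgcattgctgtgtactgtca

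The arrays were designed on another build, so these coordinates place the windows and not the probes. The letters TATAAA were present, on either strand, in 1 of the 7 member windows, that of C3, and in 13.6% of all 32851 windows of this length. On either strand, the interferon element was present in the Cd59a window only among the members, and in 3.44% of all windows. The letters TTCNNNGAA, the core of a STAT site, matched in C1ra only, against 8.30% of all windows. No member window held TGANTCA, an AP-1 site present in 7.81% of windows, or GGGA followed after any base by TTTCC, an NF-kB site present in 0.411%. A match says only that these letters occur, and binding was not measured.

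Cd55 has a tandem copy, Cd55b, in the mouse genome, and both fell. The Cd55b probe with the higher signal, A_66_P106385, read 2.21 and 2.24 in ID8G cells and 0.83 and 0.84 in GO2 cells, a log2 difference of -1.39 (standard error 0.05, adjusted p = 0.000440). Its other probe, A_55_P2073238, read -2.31 and -2.06 in ID8G cells and -3.08 and -2.99 in GO2 cells, a difference of -0.85 (adjusted p = 0.00765) that stayed under 2-fold. A probe may read both copies, which cannot be separated here. The windows of the pair are printed because they are alike as well. Cd55 lies at chr1:130462695-130462994 and Cd55b at chr1:130422994-130423293, both on the minus strand of GRCm38.p6. Capitals mark runs of at least 10 identical bases in a global alignment of the windows.

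Cd55: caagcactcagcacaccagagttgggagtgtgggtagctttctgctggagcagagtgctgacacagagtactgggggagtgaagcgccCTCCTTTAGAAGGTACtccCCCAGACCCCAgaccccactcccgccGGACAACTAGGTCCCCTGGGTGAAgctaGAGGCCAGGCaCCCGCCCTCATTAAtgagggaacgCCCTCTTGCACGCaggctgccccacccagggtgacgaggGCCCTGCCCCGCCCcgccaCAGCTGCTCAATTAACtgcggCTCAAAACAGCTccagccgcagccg

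Cd55b: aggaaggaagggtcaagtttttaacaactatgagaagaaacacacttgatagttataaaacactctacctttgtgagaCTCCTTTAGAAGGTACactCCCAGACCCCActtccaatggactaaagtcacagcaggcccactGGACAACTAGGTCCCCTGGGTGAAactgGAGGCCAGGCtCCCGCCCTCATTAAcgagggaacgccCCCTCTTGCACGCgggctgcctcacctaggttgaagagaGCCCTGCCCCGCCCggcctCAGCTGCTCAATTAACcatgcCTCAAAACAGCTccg

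Of 277 aligned bases, 213 (76.9%) were identical, and the longest identical run was 24 bases. When the Cd55 window was aligned in the same way with those of C1ra, C1s1, C3, Cd59a and Cfd, 53.2% to 66.8% of aligned bases were identical and the longest run was 10 bases. In both windows the far end from the start site holds no capitals.

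The members are part of a wider set of 56 complement genes, of which 22 had a tested probe (1 probe a gene, that with the highest mean signal). Of these, 2 genes were higher (C2 and Cd59a) and 3 were lower (C3, Cd55 and Cd55b). Without the members, 15 genes of the wider set were tested, of which 0 were higher and 1 was lower, Cd55b. Over all 13215 tested genes, 5.98% were called higher and 3.94% lower. The median log2 difference of the 22 genes was -0.05, and that of all tested genes was 0.00. The probes of Cfhr2, a gene of the soluble regulators, disagreed in size. The brighter, A_55_P2098995, differed by 0.38 and was not called, whereas A_52_P796840 differed by 1.18 (adjusted p = 0.00231). Cfhr2 has close relatives in the genome, so a probe may read more than 1 gene.

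By role, the 10 classical genes gave 7 tested genes, of which C2 alone was called. C1qb, the only tested chain of C1q, differed by -0.61 (95% interval -1.02 to -0.19, limma adjusted p = 0.0442), short of 2-fold. Its probe was well above background on both ID8G arrays and on neither GO2 array. The 8 genes of the lectin route (collectins, ficolins and their proteases) gave no tested gene. Of 7 terminal genes, which build the lytic pore, 2 were tested. C7 read -0.55 and -0.60 in ID8G cells and -1.67 and -1.43 in GO2 cells, a difference of -0.98 (adjusted p = 0.00484) just under 2-fold, which passed 2-fold with arrays centered on their median (-1.01), with spike-in scaling (-1.19) and without GO2 replicate 2 (-1.10), and likewise without ID8G replicate 2, and C8g differed by 0.03. Of the 4 alternative genes 2 were tested, with C3 lower and Cfp (properdin, which stabilizes the convertase) at -0.05. Of the 7 soluble regulators 2 were tested and neither was called, and Clu (clusterin, an inhibitor of pore assembly) differed by 0.14 (adjusted p = 0.111). Of the 11 membrane regulators 4 were tested, with Cd59a higher, Cd55 and Cd55b lower, and Cr1l, the gene of Crry, not called. The Cr1l probes differed by 0.08 and 0.03 (adjusted p = 0.360 and 0.764), where the 95% interval of the second runs from -0.14 to 0.19. Of the 9 receptor genes, 5 were tested and none was called. Cd93 differed by 1.28 (95% interval -0.43 to 2.99, limma adjusted p = 0.184), with neither ID8G array well above background. C5ar2 differed by -0.35 (limma adjusted p = 0.0491), short of 2-fold. C1qbp, a binding protein of C1q that resides mostly in mitochondria, differed by -0.06, and Itgam, the alpha chain of complement receptor 3, by -0.13. The Itgam probes disagreed in level. The one used here, A_55_P1977934, read 4.13 to 4.39 over the arrays. The second, A_55_P1977926, read -3.93 to -3.32, was well above background on 1 array only and was not tested. Itgb2, the beta chain, read -2.91 to -2.76 and differed by 0.00. C7, C8g, Cfp, Cr1l, C1rb, C1qb, Cd93, C5ar2 and Itgb2 were chosen for mention after their values were seen.

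**Figure D3:**
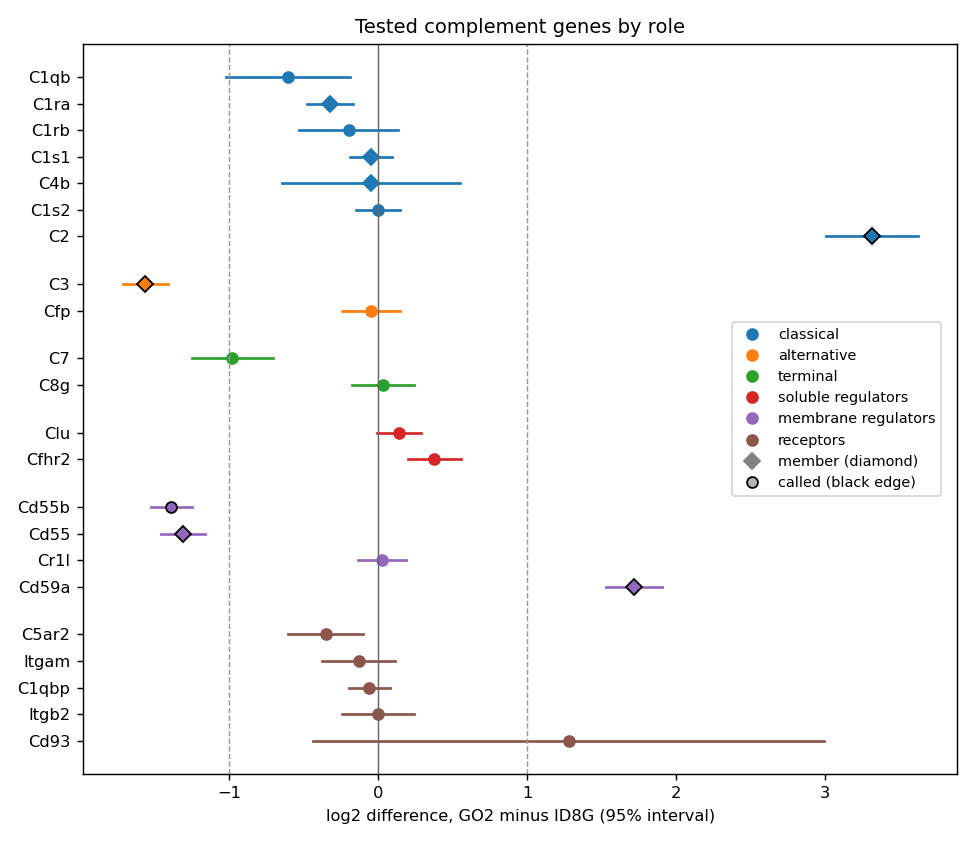
Log2 difference (GO2 minus ID8G) of the 22 tested complement genes by role, each with the 95% interval of the limma fit. Diamonds are members, a black edge marks a call, and the dashed lines stand at 2-fold. C3, Cd55 and Cd55b lie to the left of the lower line and C2 and Cd59a to the right of the upper one.

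The genes that lie beside the members in the genome were read next. Of 65 such genes that are no members themselves, 3 were called higher (4.62%) and 4 lower (6.15%), next to 5.98% and 3.94% of all tested genes. The 10 nearest tested genes of C2, 5 on each side, ranged from -0.23 to 0.36 with a median of 0.09, and none was called. C2 and Cfb are neighbors in the class III region of the major histocompatibility complex, and in GO2 cells C2 was well above background and Cfb was not. Around Cd59a the neighbors ranged from -0.75 to 0.55 with a median of -0.02, and none was called. Around Cd55 the median was -0.03, with Cd55b lower and Lct higher (1.02). Around C3 the median was -0.09, with Gm11110 (-1.31) and Tnfsf9 (-1.30) lower and Efna5 (1.31) higher. Beside C4b, Tnxb (-1.12) was lower, and beside Cfd, Plppr3 (1.67) was higher. The tested neighbors of C1ra and C1s1, which include each other, held no called gene.

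**Figure D4:**
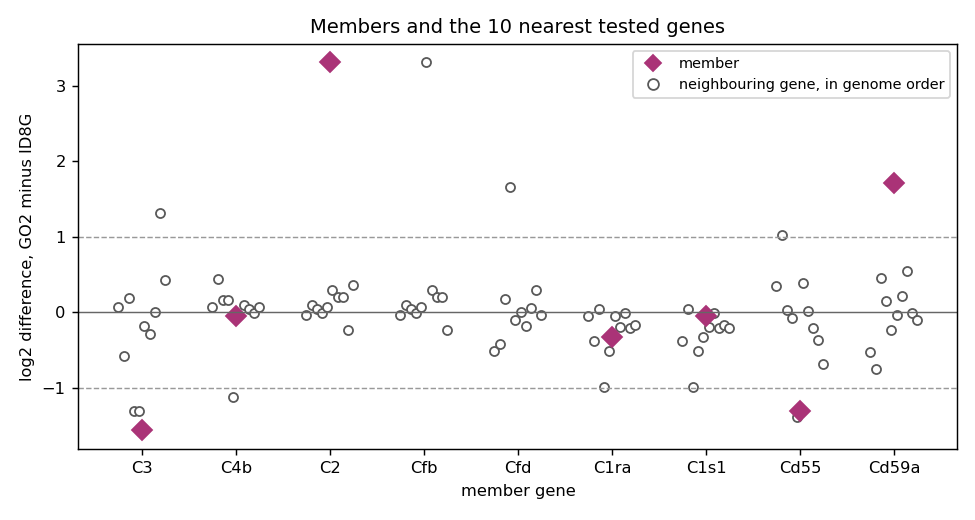
Log2 difference (GO2 minus ID8G) of each tested member (diamond) and of the 10 nearest tested genes in genome order (circles, 5 on each side). The C2 and Cd59a diamonds stand clear of all their neighbors, the Cd55 diamond overlaps the circle of Cd55b, and the circle near 3.31 at Cfb is C2.

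The arrays were alike in quality. Replicates of each line correlated at 0.997 across tested probes, which are not independent, and between lines the correlation was 0.967 to 0.968. For the tested member probes the replicates of a line differed by a median of 0.07 on the log2 scale in each line, close to the 0.08 of all tested probes. The largest gap was 0.61, for C4b in ID8G cells. The 7 spike-in transcripts measured above background throughout read 0.15 to 0.28 higher in GO2 cells after scaling. Scaling to them shifted the median over the tested probes from -0.02 to -0.23, and C3, Cd55, C2 and Cd59a kept their direction and their call.

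Markers were read for the cells that the sort could hold. Keratins Krt8 and Krt18, Wt1 and mesothelin (Msln) lay well above background on all 4 arrays, whereas Epcam and Krt7 did not on any. Of 14 macrophage markers, 9 were not well above background on any array, including Ptprc (CD45), Adgre1 and Tyrobp, and none of the 5 tested was called. Among the tested ones Cd14 (-0.69, limma adjusted p = 0.00210) was lower in GO2 cells but fell short of 2-fold. The summed linear signal of the list, with the 75th percentile as 1, was 22.6 to 25.4 in ID8G cells and 21.9 to 22.0 in GO2 cells. Itgam alone, read by the brighter of its disagreeing probes, made up 80.1% to 82.7% of that sum. Without it the sum was 4.38 to 4.52 in ID8G cells and 3.96 to 4.37 in GO2 cells. Of 12 fibroblast markers, 6 were tested and 5 were higher in GO2 cells, among them Col1a1 (4.69), Col1a2 (7.49) and Col3a1 (4.20), whereas Dcn fell short of 2-fold (-0.63) and Lum, Thy1 and Fap were not well above background on any array. The summed signal of that list was 68.6 to 71.4 in ID8G cells and 150 to 151 in GO2 cells. Dcn made up 28.3% to 94.3% of that sum, and without it the sum was 3.99 to 4.04 in ID8G and 108 in GO2 cells. With or without Dcn the sum thus moved with C2 and Cd59a, and its part in their difference was not tested. Of 10 adipocyte markers, 4 were tested and Fabp4 (-3.18) and Lpl (-1.53) were lower in GO2 cells, and the summed signal was 27.2 to 27.6 in ID8G cells and 10.6 to 11.3 in GO2 cells. Adipoq, Plin1 and Cfd, which this list shares with the members, were not well above background on any array. Of 10 endothelial markers 8, and of 6 hepatocyte markers 5, were not well above background on any array. Their summed signal was 0.670 to 0.698 and 1.33 to 1.69 in ID8G cells and 1.09 to 1.13 and 2.32 to 2.57 in GO2 cells. Egfl7 (0.97, limma adjusted p = 0.00123), just short of 2-fold, made up 61.1% to 77.7% of the endothelial sum. Without it the sum was 0.219 to 0.271 in ID8G cells and 0.243 to 0.269 in GO2 cells. Ahsg (0.75, limma adjusted p = 0.0298), also short of 2-fold, made up 90.3% to 95.6% of the hepatocyte sum. Without it the sum was 0.117 to 0.128 in ID8G cells and 0.114 to 0.143 in GO2 cells. Of 10 mesothelial markers, 8 were tested, with Krt19 (-1.65) lower and Upk3b (1.08) higher, and the summed signal was 289 to 296 in ID8G cells and 160 to 163 in GO2 cells. Msln (-0.82, limma adjusted p = 0.00176) and, in the other direction, Bnc1 (0.60, limma adjusted p = 0.00497) fell short of 2-fold. Of 10 epithelial markers, which also hold Krt19, 6 were tested and Krt19 alone was called lower, with a summed signal of 550 to 568 against 290 to 292. Krt18 (-0.81, limma adjusted p = 0.00162) and Krt8 (-0.55, limma adjusted p = 0.00438) fell short of 2-fold. Among the tested epithelial markers only Cldn7 did not read lower (0.02). Without Krt19 the mesothelial sum was 120 to 130 in ID8G cells and 107 to 110 in GO2 cells, and the epithelial sum was 384 to 398 and 237 to 238. Lpl made up 74.4% to 86.3% of the adipocyte sum, and without it the sum was 3.73 to 3.92 and 2.61 to 2.90. The sums without these genes were added after the data were seen. Krt19, Lpl, the adipocyte sum without Lpl, and the mesothelial and epithelial sums without Krt19 thus moved with C3 and Cd55. Their part in that difference was not tested. The endothelial and hepatocyte sums moved with C2 and Cd59a, but without Egfl7 and Ahsg the lines overlapped, and their part was not tested either.

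**Figure D5:**
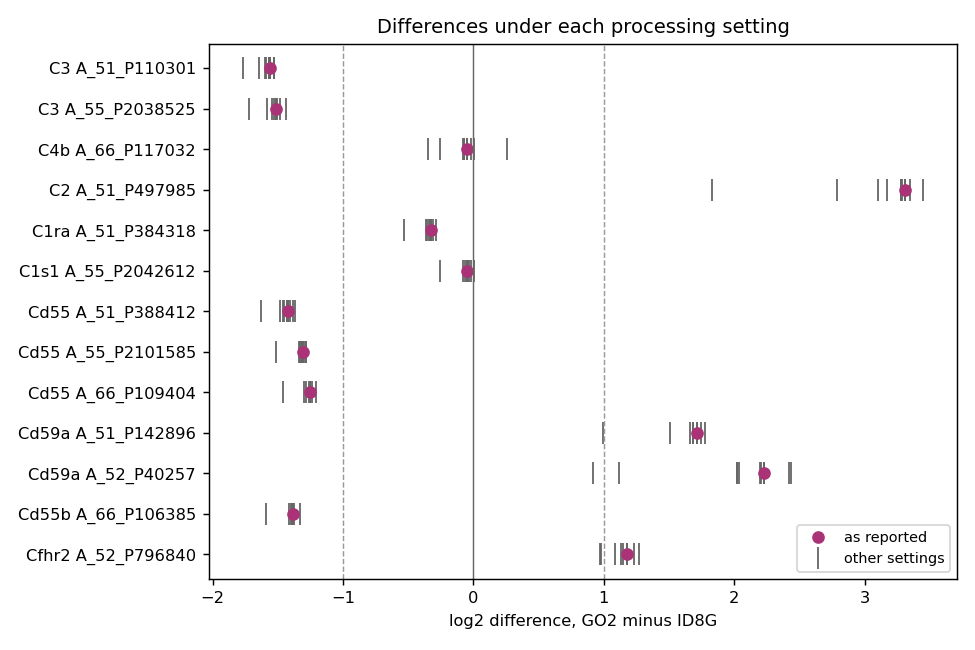
Log2 difference (GO2 minus ID8G) of the 11 tested member probes and of the called probes of Cd55b and Cfhr2, as reported (dots) and under the other processing settings (ticks). Dashed lines stand at 2-fold. All ticks of C3 and Cd55 stay below -1, whereas those of C2 spread from 1.83 to 3.45 and those of Cd59a reach 0.92.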

How the data were processed

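Total RNA of ID8G and GO2 cells was labeled with Cy3 and hybridized to 4 Agilent SurePrint G3 mouse arrays on 1 slide, 2 per line. Per the file headers, the deposited intensity of each spot came from Agilent Feature Extraction 11.5.1.1 with background subtracted and no normalization between arrays. The deposited value table holds log2 values of the same arrays from GeneSpring, scaled to the 75th percentile and centered on the median of each probe, and served as 1 alternative. Of its columns, 0 were unused. The array design was annotated on mm9.

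Spots marked as outliers were left out and the spots of a probe averaged. Levels were log2 intensity minus the 75th percentile, tested across all probes with limma 3.58.1 (R 4.3.3), where the model held the line and no covariate. No spot was saturated. Probes were named through RefSeq (GRCm38.p6), which matched 32994 of 56605 probes (58.3%), so further probes of these genes may go unnamed here. Alignments used biopython 1.88 and figures matplotlib 3.10.9. The procedure was tested on simulated data.

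A gene of the wider complement lists is not reported here and is left out of their counts. The members, the wider complement lists, the marker lists, the motifs and the tests were chosen with earlier results of these data known. Named were all members, called genes of the wider lists and the 5 brightest genes not called, and up to 3 markers a list with others that a result turns on. Alternatives changed the background correction (normexp with an offset of 50 on the median pixel of a spot, as no mean was used here), normalization, scaling, filter, floor, variance model, test, threshold, outlier spots, probe choice, block and arrays. The slide could not serve as a block, since there is 1.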

Additional observations from a re-analysis of the deposited data

How the results depend on the processing

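Of 204 values of 13 single probes under other settings, 187 stayed on the same side of 0 and of the call, 14 lost the call, and 3 changed sign. The sign changes concern differences near 0 that were not called, in C4b (0.0066 with normexp background correction, and -0.35 to 0.26 when 1 array was left out, positive without ID8G replicate 1) and C1s1 (0.0049 with normexp). Of the 14 losses, 10 came with the methods' t-test, 3 with normexp (both Cd59a probes and Cfhr2) and 1 with spike-in scaling (Cfhr2, 0.97). The causes were not tested. The 3 member probes called higher became 1 with normexp and 0 with the methods' t-test. With signal required well above background on all 4 arrays they became 0, since that filter removed these 3 probes. Their removal is not counted among the 14 losses. The 5 called lower became 0 with the t-test, 6 with no minimum fold, and stayed 5 under every other setting. Without any 1 array, 3 member probes were higher and 5 lower.

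Of the wider list, 2 higher genes became 1 with normexp (offset 50), 0 with the filter on all 4 arrays and 0 with the t-test, and 3 lower genes became 0 with the t-test and 7 with no minimum fold. Without 1 array the lower genes ranged from 3 to 5, with C8b and Cr2 added without ID8G replicate 1, C7 and Masp2 without ID8G replicate 2 and C7 without GO2 replicate 2, and the higher ones from 2 to 3, with Cd93 added without ID8G replicate 1 and C8b without GO2 replicate 1. Median centering and spike-in scaling each made C7 the 4th lower gene. Over all probes, 1277 higher and 947 lower became 818 and 517 with normexp, 666 and 606 with the filter on all 4 arrays, 0 and 3 with the t-test and 4835 and 5348 with no minimum fold, and 1434 were lower with spike-in scaling. Without 1 array they ranged from 1288 to 1628 higher and 913 to 1408 lower. Such fits take the spread of the remaining array from the other line.

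With the replicate number as a block, member probes called were 3 higher and 5 lower, and 1251 probes were higher and 936 lower in all. The deviations of same-numbered arrays from the line means correlated at 0.0273. The labels give only a number, so whether such arrays were handled together cannot be told. Signal over background limits C2 and Cd59a, whose probes were well above background on at most 1 array of ID8G cells.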

Other observations

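Several untested probes of the wider list were well above background on a single array. The C8b probe A_55_P1954116 read -5.81 and -2.22 in ID8G cells and -6.02 and -6.10 in GO2 cells, and its other probe, A_51_P151214, read -5.67, -5.97, -5.49 and -1.75 in the same order. The Cr2 probe A_51_P208525 read -5.76 and -2.27 in ID8G cells and -5.93 and -6.06 in GO2 cells. The Masp2 probe A_55_P1990500 read -3.17 and -5.77 in ID8G cells and -6.04 and -6.13 in GO2 cells. The Masp1 probe A_52_P216226 read -3.78 and -6.13 in ID8G cells and -6.07 and -2.81 in GO2 cells, with only the last well above background. The Masp2 value of -3.17 lies close to the lowest level well above background on that array (-3.53). None of these probes was tested in the comparison of the lines, since none was well above background on both arrays of a line.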
